A study of Mus musculus with 94 samples.

Results

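The module covered here is the N-glycosylation pathway of the endoplasmic reticulum (ER), taken as 36 genes that make the lipid dolichol, build a sugar chain on it, move that chain to proteins and then trim and read it. All 36 were found in the deposited table of 46078 gene identifiers, and all 36 had reads in at least 10 of the 92 cells kept. Of all genes, 12460 met that rule. Dhdds and Alg3 met it mainly through CD34+ cells, with reads in 7 and 2 CD34- cells and in 38 and 18 CD34+ cells. The module was chosen because these same genes had been seen to differ strongly between the sorted groups, so the values below describe the contrast that prompted the choice and test nothing.

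The data are single-cell RNA sequencing profiles of basophils, the IgE-binding granulocytes, sorted from the bone marrow of 3 mice, all female and of the strain C57BL/6. Both groups were live cells negative for lineage markers (Lin-) and for Sca1 and positive for the high-affinity IgE receptor FcεRI; 47 carried the progenitor surface protein CD34 (CD34+) and 47 did not (CD34-). Age and any treatment are not given in the sources used here. The labels do not tie a cell to a mouse, so each sorted group counts as 1 sample with no replicate, and no test or p-value is given.

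Dolichol is a long membrane lipid of the isoprenoid family. Enzymes on the cytosolic face of the ER attach the first sugars to its phosphate, the chain is flipped into the lumen and completed there, and the oligosaccharyltransferase complex (OST) moves it to asparagine residues of proteins entering the ER. Glucosidases then trim the chain and the lectin chaperones calnexin and calreticulin hold the new glycoprotein while it folds. In basophils the α chain of FcεRI is itself an N-glycosylated protein that folds in the ER.

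Expression is given as CPM, counts per 1e+06 gene reads. For a group it is taken from reads summed over its 46 kept cells, and for a cell from its own reads. A log2 fold is the CD34+ level over the CD34- level, each with 1 CPM added. Its counting interval sets the lower 95% Poisson limit of 1 group against the upper limit of the other, so its own coverage is not 95%. A gene was called found in a cell if it had a read after 200000 gene reads were drawn from each cell. The kept cells held 262944 to 938322 gene reads in the CD34- group and 374011 to 1154738 in the CD34+ group. Cd34 had 7 reads in the CD34- and 1799 in the CD34+ cells. All 9 basophil markers had reads in both groups, with summed levels of 236 to 140392 CPM per CD34- cell and 5205 to 173604 CPM per CD34+ cell. Of 5 markers of plasma cells, a cell type rich in ER, Jchain, Mzb1 and Tnfrsf17 had 0 reads in both groups. The other 2 had reads in CD34+ cells only, mainly Derl3 at 8.02 CPM, and the summed level of the list was 0 in all CD34- cells and 0 to 148 CPM over CD34+ cells, with a median of 0.

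Most OST genes were higher in CD34+ cells, and the other steps of the pathway were mixed. Of the 36 genes, 15 were at least 2-fold higher in CD34+ cells, or 41.7%, where 21.7% of all genes used were. None was at least 2-fold lower, where 10.1% of all genes were, and 30 had a log2 fold above 0, where 58.9% did. The median log2 fold was 0.76 (counting interval 0.60 to 0.91), and 0.71 without Dhdds and Alg3, beside 0.19 for all genes used. OST genes made up 8 of the 15, as the plot of log2 folds by gene shows. Scaled by ERCC spike-in reads instead of gene reads, 30 of the 36 were at least 2-fold higher, where 51.4% of all genes were.

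**Figure D1:**
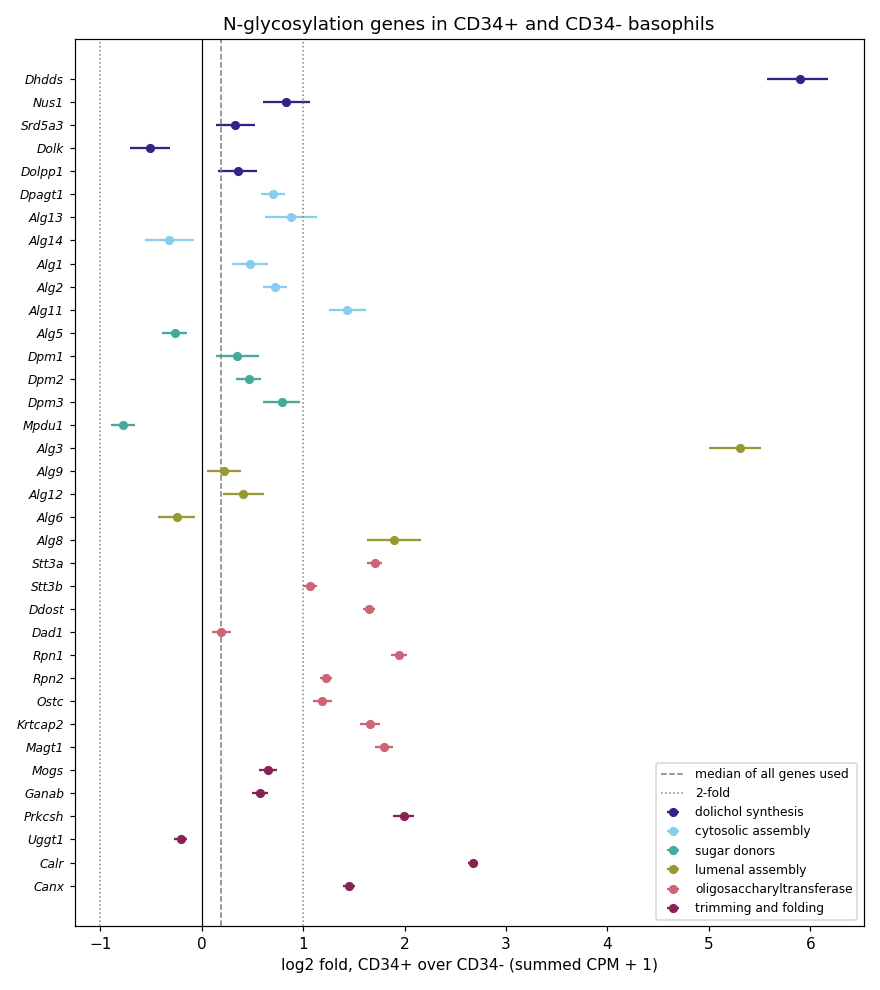
Log2 fold of each of the 36 genes (x axis, CD34+ over CD34-, summed CPM plus 1), in pathway order from top to bottom and coloured by step. Bars are counting intervals from the 95% Poisson limits of both groups. The dashed line is the median of all genes used and the dotted lines mark 2-fold. Dhdds and Alg3 stand far to the right at 5.90 and 5.31, and 8 of 9 OST genes lie beyond 2-fold while most of the dolichol and assembly genes lie inside it.

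The abundant genes were all of the later steps. The 15 genes with a mean of both groups of at least 100 CPM were those of OST and of trimming and folding, and 11 of them were at least 2-fold higher in CD34+ cells. Among all 2035 genes at that level 7.86% were, and their median log2 fold was -0.24. Of the 11, Rpn1, Ostc, Krtcap2, Magt1 and Prkcsh were at 51.8 to 98.5 CPM in CD34- cells. They met the level only through the CD34+ group. Of the 21 genes under 100 CPM, 4 were at least 2-fold higher, or 19.0%, where 24.3% of all 10425 genes under that level were. These 21 were the genes of dolichol synthesis, assembly and sugar donors. Since the module was chosen on this contrast, and the split at 100 CPM after the values were seen, the shares are set beside each other as a description.

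Dolichol synthesis begins with Dhdds, the catalytic subunit of the cis-prenyltransferase that builds the polyprenol chain. Dhdds ranged from 0 to 12.1 CPM over CD34- cells, with a median of 0. Over CD34+ cells it ranged from 0 to 865 CPM, with a median of 49.4. No CD34- cell reached the CD34+ median, and 34 of 46 CD34+ cells lay above every CD34- cell. Summed, 18 reads stood against 2720, or 0.538 against 90.6 CPM, a ratio of CPM of 168 (103 to 295), and the gene was found in 1 CD34- and 36 CD34+ cells.

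The other genes of dolichol synthesis did not share that pattern. Nus1 encodes the obligate partner subunit of Dhdds. Its cells ranged from 0 through a median of 0 to 162 CPM in the CD34- group and from 0 through 3.93 to 217 CPM in the CD34+ group, so the groups overlapped over nearly the whole range. Its summed level was 12.6 and 23.4 CPM, a log2 fold of 0.84 (0.60 to 1.07). Reads of both Dhdds and Nus1 were found in 1 CD34- and 18 CD34+ cells. A further 18 CD34+ cells had Dhdds without Nus1, whereas 7 CD34- cells had Nus1 without Dhdds. Srd5a3, which acts in the reduction of polyprenol to dolichol, had a log2 fold of 0.33, and Dolpp1, a phosphatase that recycles the carrier, one of 0.35. Dolk, the kinase that makes dolichol phosphate, had 29.2 CPM in CD34- and 20.2 CPM in CD34+ cells, a log2 fold of -0.51. Of the CD34- reads of Dolk, 47.6% came from 1 cell, and with that cell alone left out the log2 fold was 0.35. The CD34+ group was left whole there, although 1 cell held 28.8% of its reads of Dolk. It was -1.35 with cells numbered 7 to 42 only and -0.94 with scran size factors.

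Of the 6 genes of assembly on the cytosolic face, 1 was at least 2-fold higher in CD34+ cells, or 16.7%, where 21.7% of all genes were, and 5 had a log2 fold above 0. Dpagt1, which attaches the first N-acetylglucosamine, ran from 0 through a median of 0 to 552 CPM over CD34- cells and from 0 through 38.7 to 515 CPM over CD34+ cells. The highest cells of both groups were alike and the medians were not: the gene was found in 10 CD34- and 32 CD34+ cells. Its summed log2 fold was 0.70 (0.59 to 0.82). Alg13 and Alg14 together form the transferase of the next N-acetylglucosamine, and their log2 folds lay on opposite sides of 0, at 0.88 and -0.32. For Alg14, 39.4% of the CD34- reads and 41.1% of the CD34+ reads came from 1 cell each. With that CD34- cell alone left out, and the CD34+ group left whole, Alg14 was at 0.34. With ERCC scaling it was at 0.59, where the median of all genes was 1.03.

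The mannosyltransferases Alg1, Alg2 and Alg11 then extend the chain in the cytosol. Alg1 and Alg2 had log2 folds of 0.48 and 0.72. Alg11, which adds the last cytosolic mannoses, ran from 0 through 0 to 342 CPM in the CD34- group and from 0 through 4.65 to 325 CPM in the CD34+ group. Its highest cell was thus a CD34- cell, which held 45.3% of the reads of that group, although the gene was found in 6 CD34- against 25 CD34+ cells. Its summed log2 fold was 1.44 (1.25 to 1.62), the only one of these 6 genes beyond 2-fold with the main settings. With cells numbered 7 to 42 only, Alg11 was at 0.93 and Alg2 at 1.04. The top cell of a gene is the 1 cell with most of its reads over both groups. It was a CD34- cell for Alg13, Alg1 and Alg2. With it left out, and the CD34+ group left whole, these genes were beyond 2-fold too, at 1.70, 1.01 and 1.01.

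None of the 5 genes grouped as sugar donors, which make the dolichol-linked sugars or help present them, reached 2-fold when scaled by gene reads, where 21.7% of all genes were at least 2-fold higher and 10.1% lower. Dpm1, the catalytic subunit of dolichol-phosphate mannose synthase, and its partners Dpm2 and Dpm3 had log2 folds of 0.35, 0.46 and 0.79. Alg5, which makes dolichol-phosphate glucose, stood at 72.9 CPM in CD34- and 60.6 CPM in CD34+ cells, a log2 fold of -0.26. With its top cell, a CD34- cell, left out Alg5 was at 0.16. With ERCC scaling it was at 0.69, where the median of all genes was 1.03. Mpdu1, needed for use of both donors, had the lowest log2 fold of the 36, at -0.77 (-0.90 to -0.65). With scran size factors it was at least 2-fold lower, at -1.03, and with ERCC scaling it was 0.18, where Dpm1, Dpm2 and Dpm3 were 1.27, 1.41 and 1.71. Its cells ran from 0 through 4.07 to 665 CPM in the CD34- group and from 0 through 19.4 to 461 CPM in the CD34+ group. The median cell was therefore higher in the CD34+ group although the sum was lower, and the groups overlapped fully.

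In the lumen, Alg3 adds the first mannose. It was at 0 in the median cell of both groups, and its highest cells were at 4.46 CPM in the CD34- and 515 CPM in the CD34+ group. Only 5 reads in 2 CD34- cells stood against 1340 in the CD34+ group, or 0.150 against 44.6 CPM, a ratio of CPM of 298 (121 to 969.7). In all, 15 CD34+ cells lay above the highest CD34- cell, and 1 of them held 33.2% of the reads of that group. Unlike Dhdds, Alg3 was not found in most CD34+ cells at the drawn depth, but in 15 of 46.

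The lumenal enzymes that act after Alg3 were again mixed. The mannosyltransferases Alg9 and Alg12 had log2 folds of 0.22 and 0.41. Alg6, which adds the first glucose, had -0.25, and Alg8, which adds the next, had 1.89 (1.63 to 2.16). Alg8 ran from 0 through 0 to 205 CPM over CD34- cells and from 0 through 0 to 224 CPM over CD34+ cells. It was found in 4 and 18 cells, and 1 cell held 57.7% of its CD34- reads.

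Over the 21 genes of dolichol synthesis, assembly and sugar donors, the median log2 fold was 0.46, beside 0.19 for all genes used. Of the 21, 4 were at least 2-fold higher, Dhdds, Alg11, Alg3 and Alg8, or 19.0%, where 21.7% of all genes were. That count was 16 when scaled by ERCC reads, where 51.4% of all genes were at least 2-fold higher, and 7 with the top cell of every gene left out, where 25.8% were. By step, the medians were 0.35 for dolichol synthesis, 0.71 for cytosolic assembly, 0.35 for sugar donors and 0.41 for lumenal assembly. The rest of these genes did not follow the size of the difference in Dhdds and Alg3, since the largest other value was 1.89. Their summed level per cell ran from 13.6 through 566 to 1414 CPM over CD34- cells and from 306 through 891 to 1719 CPM over CD34+ cells. The groups overlapped widely, with 13 CD34- cells at or above the CD34+ median.

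Of the OST genes, 8 of 9 were at least 2-fold higher in CD34+ cells, or 88.9%, where 21.7% of all genes were, and the median log2 fold was 1.65. With scran size factors 5 of 9 were, where 17.6% of all genes were, and the median was 1.30. Stt3b, Rpn2 and Ostc then lay under 2-fold, at 0.89, 0.95 and 0.91. Stt3a encodes the catalytic subunit of the complex that works at the translocon as proteins enter, and Stt3b that of a complex able to act afterwards. Stt3a ran from 0 through 10.04 to 774 CPM over CD34- cells and from 0 through 264 to 1142 CPM over CD34+ cells. Stt3b ran from 0 through 41.2 to 718 and from 13.2 through 234 to 1134 CPM. For both, most CD34+ cells were high, and 7 CD34- cells for Stt3a and 11 for Stt3b reached the CD34+ median. The summed log2 folds were 1.71 (1.63 to 1.78) for Stt3a and 1.07 (1.00 to 1.14) for Stt3b. Per kilobase of exon, the level of Stt3a was 0.559 of that of Stt3b in the CD34- and 0.873 in the CD34+ group. Both were found together in 21 CD34- and 44 CD34+ cells.

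Ddost, Rpn1, Rpn2 and Dad1 encode subunits common to both complexes. Rpn1, whose product is ribophorin I, ran from 0 through 1.94 to 733 CPM over CD34- cells and from 0 through 278 to 1154 CPM over CD34+ cells. The median CD34- cell was near 0, and 5 of them reached the CD34+ median. Its summed log2 fold of 1.94 (1.87 to 2.02) was the highest of the 9. Ddost, the most abundant OST gene per kilobase in both groups, went from 176 CPM in CD34- to 556 CPM in CD34+ cells, a log2 fold of 1.65. Rpn2, encoding ribophorin II, had a log2 fold of 1.22.

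Dad1 was the exception among the subunits. It ran from 0 through 85.9 to 644 CPM over CD34- cells and from 0 through 105 to 262 CPM over CD34+ cells, so the highest cell was a CD34- cell and the medians lay close together. Its summed log2 fold of 0.19 (0.10 to 0.29) lay at the median of all genes, and its direction depended on the scaling: it was -0.01 with TMM factors and -0.04 with scran factors.

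Among subunits found in only 1 of the complexes, Ostc and Krtcap2 belong with Stt3a and Magt1 with Stt3b. Magt1 ran from 0 through 10.2 to 681 CPM over CD34- cells and from 0 through 218 to 882 CPM over CD34+ cells. Only 3 CD34- cells reached the CD34+ median, and the summed log2 fold was 1.79 (1.71 to 1.88). Krtcap2 had a log2 fold of 1.66 and Ostc one of 1.19. Subunits of both complexes were thus at least 2-fold higher.

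Counted per cell, the subunits were found together in CD34+ cells. All 9 were found in 34 of 46 CD34+ cells and in 3 of 46 CD34- cells. Fewer than 5 were found in 16 CD34- cells and in 0 CD34+ cells. The summed OST level ran from 96.7 through 793 to 4211 CPM over CD34- cells and from 256 through 2723 to 5454 CPM over CD34+ cells. Most CD34- cells lay below most CD34+ cells: 2 CD34- cells, numbered 31 and 36, were at or above the CD34+ median, and 44 CD34+ cells were above the CD34- median.

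**Figure D2:**
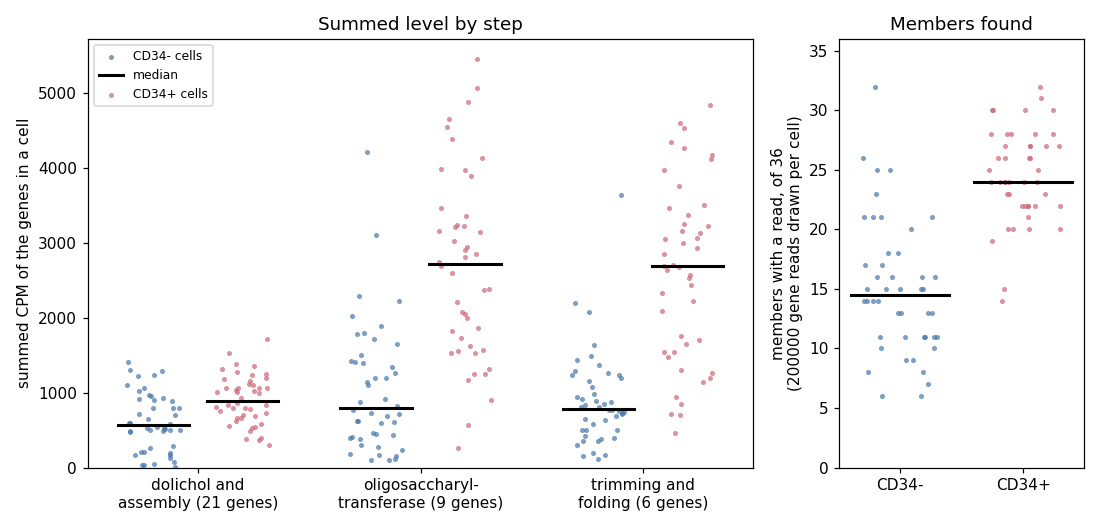
Left, summed CPM in each cell (y axis) of the 21 dolichol and assembly genes, the 9 OST genes and the 6 trimming and folding genes, with CD34- cells in blue, CD34+ cells in red and the median of 46 cells as a black line; right, the number of the 36 genes found in each cell at 200000 gene reads. The medians lie close together for dolichol and assembly (566 and 891 CPM) and far apart for OST (793 and 2723 CPM).

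Of the 6 trimming and folding genes, 3 were at least 2-fold higher in CD34+ cells, or 50%, where 21.7% of all genes were. A log2 fold above 0 was seen in 5 of the 6, where 58.9% of all genes had one, and 1 lay below 0. Calr encodes calreticulin, the soluble lectin chaperone that also stores calcium. It ran from 0 through 103 to 2231 CPM over CD34- cells and from 13.5 through 1401 to 3225 CPM over CD34+ cells. A single CD34- cell reached the CD34+ median, cell 31, which held 21.6% of the CD34- reads. The summed log2 fold was 2.68 (2.63 to 2.72).

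Canx encodes calnexin, the membrane-bound counterpart of calreticulin. Its cells ran from 0 through 73.0 to 1488 CPM in the CD34- group and from 1.44 through 423 to 1133 CPM in the CD34+ group, with a summed log2 fold of 1.45 (1.39 to 1.51). Its highest cell was a CD34- cell, and 5 CD34- cells reached the CD34+ median.

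The 2 subunits of glucosidase II differed in size of difference. Prkcsh, the regulatory β subunit that keeps the enzyme in the ER, ran from 0 through 1.44 to 479 CPM over CD34- cells and from 0 through 164 to 931 CPM over CD34+ cells. Its log2 fold was 1.99 (1.89 to 2.10). The catalytic α subunit gene Ganab had 0.58 (0.50 to 0.65), and Mogs, glucosidase I, had 0.66. Uggt1, the folding sensor that adds a glucose back to misfolded glycoproteins, ran from 0 through 159 to 1402 CPM over CD34- cells and from 7.60 through 169 to 905 CPM over CD34+ cells. Its log2 fold was -0.21, the groups overlapped fully and the gene was found in 40 CD34- and 46 CD34+ cells.

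The promoters of these genes were searched for the ER stress response element, a motif described upstream of ER chaperone genes, because Calr and Canx were higher together with other ER chaperone genes. RefSeq promoter windows (250 bases before to 50 after a start site, assembly GRCm38.p6) were matched for 32 of the 36 genes. Dpagt1, Alg2, Alg11 and Ostc had no entry. The motif, CCAAT and CCACG with any 9 bases between them, on either strand, was found in 0.119% of 32851 promoters, and among the 32 genes in Calr, Canx and Alg12. The shorter form, ATTGG and CCACG with any 1 base between them, on either strand, was found in 0.0365% of promoters, and among the 32 in Krtcap2. The CCAAT box alone, which is part of the longer motif, was in 37.4% of all promoters and in 20 of the 32. The matching stretches are printed on the strand of each gene to show where and in which orientation the motif lies, with the defined bases of the motif in capitals (its 5-base ends, or the whole shorter form). In Calr the motif lies on the opposite strand and so reads as its reverse complement. Positions count from the RefSeq start site. The Calr, Canx and Alg12 stretches lie upstream of it, and that of Krtcap2 lies in the transcribed part, where the GENCODE M21 gene already starts at 89245966. The Alg12 stretch is shared with the neighbouring Creld2, whose promoter holds the same 19 bases on the other strand.
Calr (chr8:84847050-84847118, minus strand, -187 to -119 from the start site): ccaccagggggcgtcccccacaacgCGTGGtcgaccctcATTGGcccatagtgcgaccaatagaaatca
Canx (chr11:50325775-50325843, minus strand, -170 to -102): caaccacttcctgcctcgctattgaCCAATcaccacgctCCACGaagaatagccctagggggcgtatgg
Alg12 (chr15:88819495-88819563, minus strand, -245 to -177): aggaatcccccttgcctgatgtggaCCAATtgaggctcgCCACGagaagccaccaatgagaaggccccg
Krtcap2 (chr3:89246481-89246509, plus strand, +9 to +37): gggacacggATTGGACCACGgacggggcg

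The genes with the long motif did not share a size of difference. Calr and Canx were beyond 2-fold, while Alg12 had 20.4 CPM in CD34- and 27.4 CPM in CD34+ cells. None of the 8 OST genes with a promoter entry held the long motif in its window. Of 8 promoters of other ER chaperone genes, 4 held it (Hspa5, Hsp90b1, Pdia6 and Creld2). The GENCODE gene start also lies upstream of the RefSeq start used for Hspa5 and Alg3. A match describes the letters of the window and is not evidence of a bound site.

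Across cells, the number of the 36 genes found ran from 6 through 14.5 to 32 in CD34- cells and from 14 through 24 to 32 in CD34+ cells. Few cells crossed over: 4 CD34- cells had at least the CD34+ median, and 1 CD34+ cell was at or under the CD34- median. The medians differed by 9.5 genes. The SD over cells, which is no error between samples, was 5.65 for CD34- and 3.92 for CD34+ cells. All genes were found more often in CD34+ cells too, with medians of 4535.5 and 6511 genes per cell, a ratio of 1.44 beside 1.66 for the 36. Of the 36, 35 were found in more CD34+ than CD34- cells, where 80.9% of all genes were. The exception was Dolk, in 12 CD34- and 11 CD34+ cells.

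**Figure D3:**
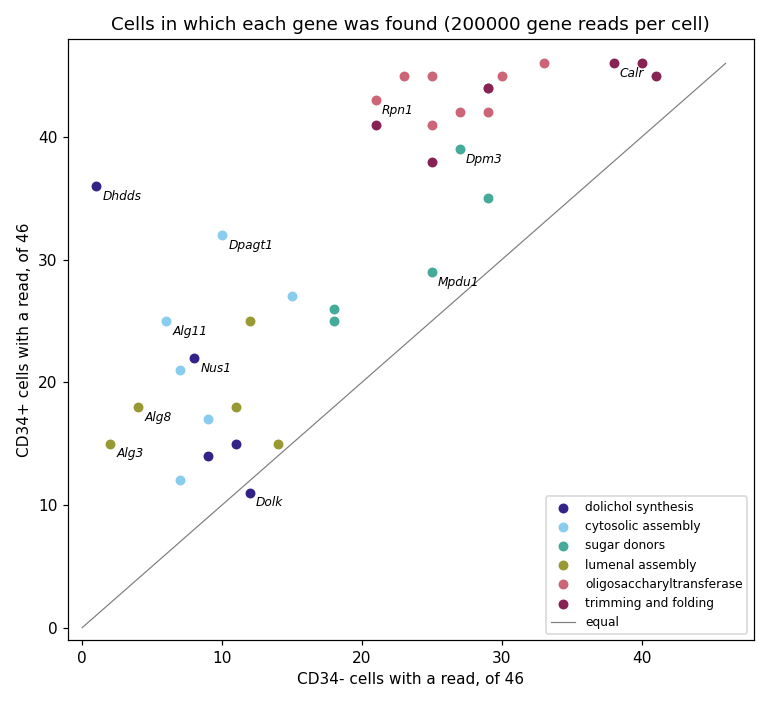
Number of cells in which each of the 36 genes was found at 200000 gene reads per cell (x axis CD34-, y axis CD34+, each of 46), coloured by step; the grey line marks equal numbers. All genes but Dolk lie above the line, and Dhdds lies at 1 and 36 cells.

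The OST sum was weakly related to the dolichol and assembly sum over the 46 cells of each group, with a Spearman rho of 0.18 in both (Pearson r 0.15 in CD34- and 0.07 in CD34+ cells, and 0.19 and 0.32 without the 2 cells farthest from the median). Between OST and the trimming and folding sum it was 0.38 in CD34- cells (r 0.36, and 0.31 without the 2 farthest cells) and 0.70 in CD34+ cells (r 0.70 in both cases). These are descriptions over cells that share a library preparation and differ in depth and in genes found. OST also went with the number of genes found, at rho 0.50 and 0.41. Single pairs of OST genes had a median rho of 0.19 in CD34- and 0.27 in CD34+ cells, where all 36 pairs were above 0, beside 0.02 over pairs of all genes in both groups. Pairs of dolichol and assembly genes had 0.08 and 0.04.

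Other genes of the secretory route were taken from lists of 78 genes in all, of which 32 were at least 2-fold higher in CD34+ cells and 1 was at least 2-fold lower, where 21.7% and 10.1% of all genes were. The counts of the single lists stand beside those same shares, and the lists are small. The 10 other ER chaperone genes were all at least 2-fold higher, with a median log2 fold of 1.97. Among them the value was highest for Hspa5, the ER Hsp70 chaperone BiP, which went from 145 CPM in CD34- to 1135 CPM in CD34+ cells, and lowest for Hsp90b1, the ER Hsp90 chaperone, at 1.03. Within CD34+ cells the OST sum went with the sum of this list, at rho 0.77 (r 0.80, and 0.72 without the 2 farthest cells). In CD34- cells rho was 0.07 (r 0.10, and 0.18 without the 2 farthest). CD34- cell 31 had the highest CD34- value on both axes.

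**Figure D4:**
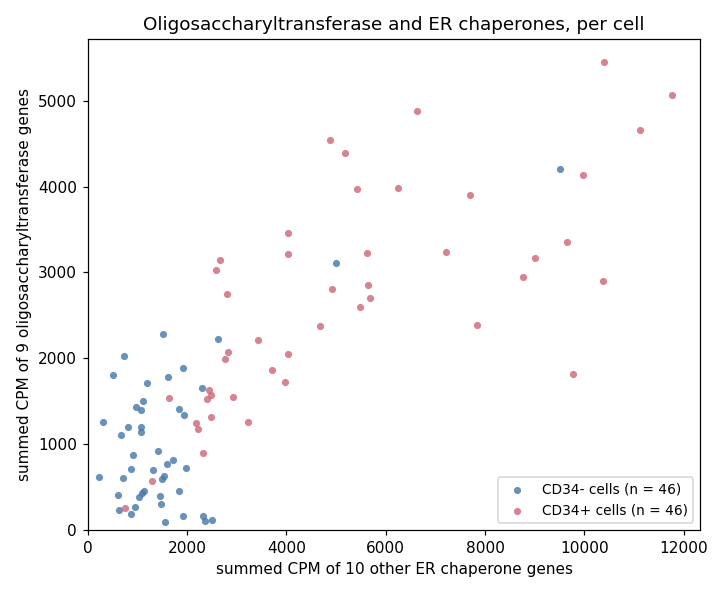
Summed CPM of the 9 OST genes (y axis) against summed CPM of 10 other ER chaperone genes (x axis), 1 point per cell, with 46 CD34- cells in blue and 46 CD34+ cells in red. The CD34+ points lie along a slope (rho 0.77) and the CD34- points show no clear slope (rho 0.07), with 2 cells, 31 and 36, standing apart at high values of both.

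Of 8 genes for the supply of isoprenoid units for dolichol, through the mevalonate pathway, 5 were at least 2-fold higher, and the median log2 fold was 1.40. Pmvk, phosphomevalonate kinase, had 1.97, and Ggps1, which makes the longer geranylgeranyl chain, had 0.16 (-0.07 to 0.39). Of 10 genes for the supply of nucleotide sugars, 2 were at least 2-fold higher, and the median was -0.14. Gmppa, a regulator of GDP-mannose synthesis, had 1.72, and Ugp2, which makes UDP-glucose, was the 1 gene at least 2-fold lower, at -1.37.

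Of 5 further genes of assembly and transfer, 2 were at least 2-fold higher, with a median of 0.69. The OST subunit gene Tmem258 was highest at 1.71. Of 12 quality control genes 4 were, with a median of 0.51, from -0.96 for Ngly1, the cytosolic enzyme that removes N-glycans, to 2.78 for Edem3, a mannosidase of ER-associated degradation. Of 14 translocon and signal peptidase genes 5 were, with a median of 0.88. Both ends were signal peptidase subunits, Spcs3 at 1.60 and Spcs1 at -0.25.

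Golgi genes and genes of other glycans lay closer to all genes. Of 12 Golgi glycan genes 2 were at least 2-fold higher, with a median of 0.34, and the Golgi mannosidases Man2a2 and Man2a1 marked the ends at 1.27 and -0.99. Of 7 genes of other pathways that draw on dolichol-linked mannose, namely glycosylphosphatidylinositol anchors and O- and C-mannosylation, 2 were, with a median of 0.46. The O-mannosyltransferase gene Pomt2 was highest at 2.47, and Pigb, of glycosylphosphatidylinositol anchor synthesis, lowest at -0.29.

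Several broad differences moved with these values, and their part in the result was not tested. Of 30 cell cycle genes, 27 were at least 2-fold higher in CD34+ cells, or 90%, where 21.7% of all genes were. The summed level of the 30 was 0 to 12984 CPM over CD34- cells and 121 to 15060 CPM over CD34+ cells. The summed basophil markers had a median of 22521 CPM over CD34- and 90295 CPM over CD34+ cells. Only 3 of the 9 were at least 2-fold higher, where 21.7% of all genes were, and their median log2 fold was 0.08. Prss34, the most abundant of the 9, stood at 24143 CPM in the CD34- and 62565 CPM in the CD34+ group. Its rho with the OST sum was 0.31 in each group. The summed list of 6 monocyte and dendritic cell markers ran from 0 through 296 to 2715 CPM over CD34- cells and from 0 through 1.23 to 813 CPM over CD34+ cells, mostly Ccr2 at 493 and 40.5 CPM. The summed neutrophil markers stood at 19.7 CPM in the CD34- and 67.4 CPM in the CD34+ group, mostly Lcn2, with Ly6g, Camp, Ltf and Retnlg at 0 in both. The erythroid markers stood at 7.80 and 27.0048 CPM, with Hba-a1 at 0 in both, and the megakaryocyte markers at 1444 and 932 CPM, nearly all Itga2b, with Pf4 and Ppbp at 0. The mast cell markers stood at 0.0299 and 7.33 CPM, mostly Tpsab1, with at most 285 CPM in a cell. The eosinophil markers stood at 76.5 and 109 CPM, with Siglecf at 76.5 and 60.3 CPM and Ear1 and Ear6 at 0 in both. Mitochondrial genes took a median of 1.63% of gene reads in CD34- and 2.23% in CD34+ cells. Within groups, the OST sum and the cell cycle sum had a rho of 0.28 in CD34- and 0.18 in CD34+ cells. CD34- cells 25 and 36 stood apart in cell cycle genes, and without them 16 of the 36 genes, in place of 15, were at least 2-fold higher and 0 lower, with a median of 0.83. The median number of gene reads per read of the spiked-in ERCC RNA was 6.87 in CD34- and 14.4 in CD34+ cells. Scaled by ERCC reads, the median log2 fold of all genes was 1.03, that of the 36 genes 1.69, and all 36 were above 0.

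Reads of some members could come from a neighbour, since the strand setting of the counting is not known. In the GENCODE M21 annotation, exons of other genes overlapped 35.9% of the exon bases of Dpm1, 26.8% of Alg1, 19.1% of Krtcap2 and 17.4% of Alg9, and at most 5.1% in 4 others. Dhdds and Alg3 had no such overlap. The reads carry no molecular identifiers, so the intervals cover counting error only.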

How the data were processed

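The authors deposited 1 table of read counts per gene and cell, not normalized. Reads were aligned with GSNAP and counted with HTSeq 0.5.3p3 on mm10, per the submitters' processing notes. The annotation and strand setting are not given in the sources used here. Per the labels' protocols, cDNA was amplified by 19 PCR cycles and sequenced as 50-base single reads. Of all reads, 32.4% were assigned to genes, 33.0% to no gene, 7.68% were ambiguous and 22.9% were not aligned; only gene reads entered library sizes.

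A kept cell had at least 50000 gene reads and 1000 genes, under 20% mitochondrial and under 50% ERCC reads, a rule that removed 2 of 94. Poisson and Clopper-Pearson 95% intervals were used, with a pseudocount of 1 CPM. The members and lists were chosen with earlier results of these data known. All 36 members could be named, and of each other list the highest and lowest log2 fold among genes with at least 10 CPM in a group. One of these is not reported here. The split at 100 CPM was chosen after the values were seen. Exon lengths came from GENCODE M21. The scripts were tested on simulated data. Alternatives used edgeR 4.0.16 (TMM factors only), scran 1.30.0 and ERCC scaling, with Python 3.11.15, numpy 2.4.6, pandas 2.3.3, scipy 1.17.1 and R 4.3.3.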

Additional observations from a re-analysis of the deposited data

Results flagged for a closer look

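Both cells left out for few gene reads still held reads of the pathway. CD34- cell 20, with 24565 gene reads, had reads of 8 of the 36 genes, where kept CD34- cells drawn to 24000 gene reads had a median of 11 (range 3 to 26). CD34+ cell 3, with 31504 gene reads, had reads of 18, and of 17 at 24000 gene reads, where kept CD34+ cells had a median of 20 (range 11 to 26).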

How the results depend on the processing

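Without replicates, a value is compared with its counting interval only, and a median with the medians of the genes' lower and upper limits. The median log2 fold of the 36 genes, 0.76, and that without Dhdds and Alg3, 0.71, stayed above 0 under all alternatives run. They were 1.69 and 1.66 with ERCC scaling (median of all genes 1.03), 0.55 and 0.51 with TMM factors (0.02), 0.53 and 0.51 with scran factors (0.01), 0.99 and 0.96 with the top cell of every gene left out (0.35), and 1.45 and 1.45 over genes of at least 100 CPM, a filter added after the values were seen. Leaving out the top cell of a gene takes it from its own group only, so that the other group stays whole. With a pseudocount of 10 CPM the value without the pair was 0.58. Of all genes, 51.4% were at least 2-fold higher and 2.18% lower with ERCC scaling, against 17.7% and 13.98% with TMM factors.

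The count at least 2-fold higher, 15, was 30 with ERCC scaling, and the count lower, 0, was 1 with scran factors (Mpdu1) and 1 with cells numbered 7 to 42 (Dolk). OST genes higher were 5 with scran factors. Dolichol and assembly genes higher were 16 with ERCC scaling, 7 without the top cell of each gene and 0 at 100 CPM, a filter that left none of them. Leaving out each of the 92 cells in turn gave medians of 0.62 to 0.83 and 0.59 to 0.79, 14 to 16 genes higher, 0 to 1 lower, 7 to 8 OST genes and 4 to 5 dolichol and assembly genes. The difference in genes found per cell was 9 to 10.5 under its alternatives.

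Of 360 values of single genes under 10 alternatives, 17 changed sign, in 9 genes. With ERCC scaling Dolk was 0.42, Alg14 0.59, Alg5 0.69, Mpdu1 0.18, Alg6 0.69 and Uggt1 0.75. Dad1 was -0.013 with TMM and -0.040 with scran factors. Without the top cell Dolk was 0.35, Dolpp1 -0.068, Alg14 0.34, Alg5 0.16, Alg6 0.36 and Uggt1 0.0051, and with cells 7 to 42 Alg9 was -0.30, Alg6 0.20 and Uggt1 0.045. For the changes under scaling and cell choice the cause was not tested. No paired analysis was possible because a cell's number is only its name and no test was run. Ratios of genes with few reads, such as Alg3 with 5 in CD34- cells, have wide counting intervals. The CD34- group held 33444417 gene reads in all and the CD34+ group 30031728, and why Alg3 had so few was not tested.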
